A study of Homo sapiens and Mus musculus with 24 samples.

Results

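A set of 9 genes that build the tight junction of epithelial cells were followed through the transcriptomes of 4 Caco-2 lines and of mouse colon epithelium. They were chosen by symbol and are TJP1, TJP3, CGN, PARD3, OCLN, MARVELD2, MARVELD3, F11R and CXADR, 9 of the 58051 human and 9 of the 29307 mouse genes counted. The set holds junction scaffolds, tricellulin (MARVELD2) and its relatives OCLN and MARVELD3, and also a polarity protein and 2 adhesion receptors. All 9 genes passed the filter on low counts in all 7 comparisons. Caco-2 cells come from a human colorectal carcinoma and grow into enterocyte-like monolayers. The WT line was compared with ΔDNMT3A, in which DNMT3A was cut with CRISPR/Cas9 and which was expanded by clonal dilution, and with 2 clonal lines made from ΔDNMT3A by piggyBac insertion of TY1-tagged DNMT3A1 (the long isoform) or DNMT3A2 (the short isoform) under a CMV promoter, with puromycin selection. Counts were analysed for 4 WT, 4 ΔDNMT3A, 3 DNMT3A1 and 4 DNMT3A2 libraries. Since each genotype is 1 line, clone and genotype cannot be told apart in any Caco-2 comparison, and no source says that the libraries came from separate cultures, so p-values measure the spread between these libraries only. The mouse libraries are 4 from Dnmt3a fl/fl animals and 4 from Dnmt3a ΔIEC animals, 12 weeks old and at steady state. The floxed allele was on a C57BL/6J background, and the Villin-Cre line was C57BL/6JxSJL/J. In ΔIEC mice Cre under the Villin promoter removes the floxed exons in intestinal epithelium. EpCAM-positive cells of the colon were sequenced.

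Tight junctions close the gap between neighbouring epithelial cells and set which ions and solutes pass between them. Membrane proteins of the claudin, MARVEL and immunoglobulin families meet across the gap, and cytoplasmic scaffolds with PDZ domains tie them to actin. In the intestine these junctions form much of the barrier that keeps luminal bacteria away from the mucosa. DNMT3A adds methyl groups to cytosines in CpG dinucleotides of DNA. On transwell inserts the study found lower resistance and higher permeability in ΔDNMT3A than WT Caco-2 monolayers, and shorter junctional complexes by electron microscopy. It does not say that the sequenced cells were grown so. In mice without colitis it reported shorter junctional complexes in ΔIEC small intestine, lower resistance of ΔIEC organoid monolayers and greater gut permeability. By qRT-PCR it found less Ocln transcript in ΔIEC than fl/fl crypts in chronic DSS colitis and in recovery from acute DSS colitis. It found less ZO-1 (Tjp1) transcript in chronic DSS colitis. DSS colitis is a setting not covered by the libraries here. The question put to the counts here is how the transcripts of these junction components differ between cells with and without DNMT3A.

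The level of DNMT3A itself, in CPM (counts scaled to a common library size), averaged 64.6 ± 2.27 in WT and 20.7 ± 1.22 in ΔDNMT3A (SD, n = 4 each). It averaged 38 ± 1.23 in the DNMT3A1 line (SD, n = 3) and 21.9 ± 1.4 in the libraries labelled DNMT3A2 (SD, n = 4). Against ΔDNMT3A the log2 fold change was 0.87 in DNMT3A1 (edgeR adjusted p = 1.91e-11) and 0.07 in the libraries labelled DNMT3A2 (edgeR adjusted p = 0.272). The gene counts thus do not show the added isoform in the latter. At the protein level the study found no DNMT3A in ΔDNMT3A, by immunoblot and by immunofluorescence. With the same methods it did detect both re-expressed isoforms, which lay in the nuclei. Mouse Dnmt3a was at 93.9 ± 7.7 CPM in fl/fl and 46.1 ± 3.3 in ΔIEC (SD, n = 4 each). Counts per gene cover all exons, also those that Cre does not remove, so they do not measure intact transcript in either species. Library depth was 22104408 to 42161299 counted reads in Caco-2 and 16943626 to 24921248 in mouse. The 7 epithelial markers summed to 8560 to 12900 CPM in Caco-2 and 9760 to 13700 CPM in mouse. PTPRC, the leukocyte marker, was at 0 in 14 of the 15 Caco-2 libraries. In mouse it was at 1.36 to 2.49 CPM in fl/fl and 3.48 to 4.88 CPM in ΔIEC (log2 fold change 1.13, edgeR adjusted p = 0.0642).

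Loss of DNMT3A in Caco-2 came with small and mixed changes. The scaffold genes TJP1 and CGN and the MARVEL genes MARVELD2 and MARVELD3 were higher in ΔDNMT3A, whereas TJP3, OCLN, CXADR and PARD3 were lower and F11R did not pass the test. No log2 fold change was beyond 0.39 in size. DNMT3A1 cells differed from ΔDNMT3A most in TJP3, which was 0.64 higher on the log2 scale, and in MARVELD3, which was 0.58 lower. In mouse colon epithelium none of the 9 genes passed the test, and every interval of the difference included 0.

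The threshold throughout was an adjusted p under 0.05 from edgeR's quasi-likelihood test over all genes. In ΔDNMT3A against WT, 4 of the 9 genes were higher and 4 lower, in a comparison where 62.2% of 16654 genes passed, 31.2% higher and 31% lower. The libraries did not overlap for 7 of the 9, beside 55.4% of all genes. The median size of the change was 0.19 on the log2 scale for the 9 genes and 0.24 for all genes tested. In DNMT3A1 against ΔDNMT3A, 2 of the 9 were higher and 5 lower (60.7% of all genes passed, 30.4% higher and 30.3% lower), and 8 of the 9 did not overlap (59.8% of all). In DNMT3A2 against ΔDNMT3A, 5 were higher and 2 lower (67.9% of all genes passed, 33.8% higher and 34.1% lower), and 6 did not overlap (61.4% of all). These 3 comparisons share the ΔDNMT3A libraries.

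Set against WT, DNMT3A1 had 3 of the 9 genes higher and 4 lower (65.3% of all genes passed, 32.6% higher and 32.7% lower), and 8 did not overlap (63.4% of all). DNMT3A2 had 6 higher and 1 lower than WT (68.7% of all genes passed, 34.3% higher and 34.4% lower), and 7 did not overlap (62.2% of all). Between the isoform lines all 9 genes passed, 2 higher and 7 lower in DNMT3A1 (68.5% of all genes passed, 34.5% higher and 33.9% lower), and none of the 9 overlapped (66.6% of all genes did not overlap). In Dnmt3a ΔIEC against Dnmt3a fl/fl, 0 of the 9 passed, where 0.691% of 14626 genes did, 0.602% higher and 0.0889% lower. All 9 overlapped between the mouse groups, and 10.3% of all genes did not overlap. With a log2 fold change of at least 0.5 also required, the members left were 0 in ΔDNMT3A against WT (21.9% of all genes), 2 in DNMT3A1 against ΔDNMT3A (23%), 0 in DNMT3A2 against ΔDNMT3A (28.2%), 0 in DNMT3A1 against WT (28.5%), 1 in DNMT3A2 against WT (27.2%), 2 between the isoform lines (32.4%) and 0 in mouse (0.677%).

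**Figure D1:**
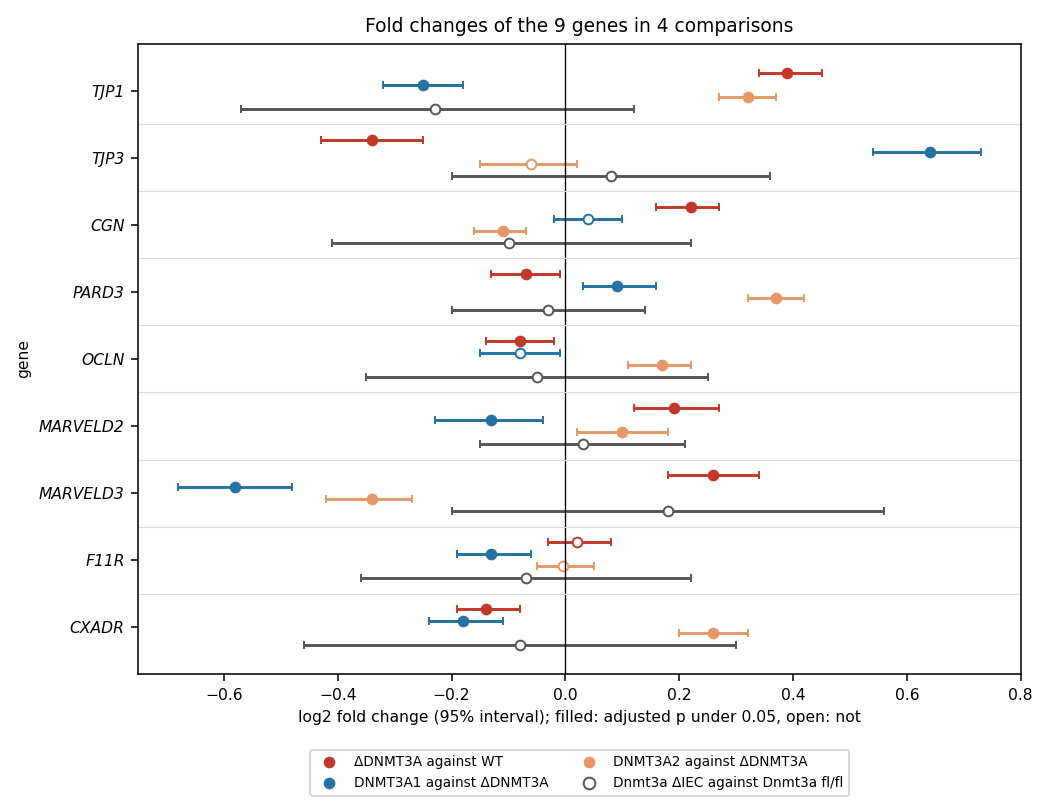
Fold changes of the 9 genes, with the log2 fold change on the x axis, 1 row a gene and 1 colour a comparison. Points are edgeR estimates with their 95% intervals, filled where the adjusted p was under 0.05. Caco-2 intervals are narrow and most exclude 0, whereas all 9 mouse intervals include 0.

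TJP1 and TJP3 had the widest ranges over the 4 lines. TJP1 encodes ZO-1, the PDZ scaffold that binds claudins, occludin and actin, and TJP3 encodes its paralogue ZO-3. TJP1 (ENSG00000104067) spans 29699367 to 29968865 of chromosome 15 (GRCh38, minus strand), and TJP3 (ENSG00000105289) spans 3708109 to 3750813 of chromosome 19 (plus strand). They are shown here with the DNA before an annotated start because of those ranges and because DNMT3A2 was the highest line for TJP1 and the lowest for TJP3. The sequences are the 250 bases before the farthest upstream RefSeq start of each gene (GRCh38.p14), 5′ to 3′ on the gene's strand, with each CpG in capitals. The TJP3 stretch lies inside the gene's span as counted, which begins farther upstream than that RefSeq start. The methylation of these CpGs was not analysed here.
TJP1, chr15:29969050-29969299, minus strand: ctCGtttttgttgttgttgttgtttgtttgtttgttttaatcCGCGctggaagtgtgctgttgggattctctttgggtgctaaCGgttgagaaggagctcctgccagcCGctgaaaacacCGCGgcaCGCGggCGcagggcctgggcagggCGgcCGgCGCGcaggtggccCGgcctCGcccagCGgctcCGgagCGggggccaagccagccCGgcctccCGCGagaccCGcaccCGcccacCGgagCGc
TJP3, chr19:3708134-3708383, plus strand: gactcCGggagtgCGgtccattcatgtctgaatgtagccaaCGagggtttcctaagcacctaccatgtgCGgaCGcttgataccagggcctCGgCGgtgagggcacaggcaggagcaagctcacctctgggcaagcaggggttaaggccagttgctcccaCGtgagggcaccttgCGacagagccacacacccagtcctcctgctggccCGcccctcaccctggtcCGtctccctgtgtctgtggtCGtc
The TJP1 stretch holds 26 CpGs, a number reached by 19.6% of 35116 RefSeq promoters taken over the same length, and the TJP3 stretch holds 12, reached by 48.5%. The other annotated starts of TJP1 hold 27, 19 and 2 CpGs, and the other start of TJP3 holds 20. Counts per gene do not show which start was used. RefSeq starts were at hand for 5 of the 9 genes, and those of CGN, OCLN and MARVELD2 hold 32, 24 and 20 (for the starts of OCLN) and 19 CpGs.

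TJP1 was at 196, 196, 191 and 195 CPM in WT and at 252, 268, 256 and 253 CPM in ΔDNMT3A. The groups did not overlap, and the log2 fold change was 0.39 (SE 0.027, edgeR adjusted p = 6.73e-12). In DNMT3A1 it was at 218, 223 and 207 CPM, below every ΔDNMT3A library and above every WT library. That is 0.25 lower than ΔDNMT3A on the log2 scale (edgeR adjusted p = 1.74e-06) and 0.15 higher than WT (edgeR adjusted p = 0.000155). Values in the libraries labelled DNMT3A2 were 326, 326, 318 and 321 CPM, the highest of any line. Their log2 fold change was 0.32 against ΔDNMT3A (SE 0.024, edgeR adjusted p = 3.49e-11) and 0.71 against WT (SE 0.023, edgeR adjusted p = 4.93e-22). TJP1 thus rose from WT through DNMT3A1 and ΔDNMT3A to DNMT3A2, and each step in this order passed the test. With a trend of the counts with GC content removed, the difference between DNMT3A1 and WT was 0.088, still past the threshold.

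TJP3 ran in nearly the reverse order. WT libraries held 41, 38.5, 42.9 and 41.2 CPM and ΔDNMT3A libraries 31.3, 33.9, 33.1 and 32.1 CPM, without overlap (log2 fold change -0.34, SE 0.042, edgeR adjusted p = 1.42e-07). DNMT3A1 was at 49.6, 50.5 and 51.7 CPM, above all WT libraries as well. It rose by 0.64 over ΔDNMT3A (SE 0.046, edgeR adjusted p = 2.92e-10) and by 0.3 over WT (edgeR adjusted p = 1.22e-06). With 29.8, 31.1, 31.8 and 32.3 CPM, the libraries labelled DNMT3A2 overlapped ΔDNMT3A. Their log2 difference from ΔDNMT3A was -0.06 (95% interval -0.15 to 0.02, edgeR adjusted p = 0.191) and turned to 0.032 with the GC trend removed. Against WT the value was -0.4, and -0.24 with the GC trend removed, past the threshold in both.

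CGN encodes cingulin, a cytoplasmic protein that links ZO proteins to actomyosin (ENSG00000143375, chromosome 1, 151510510 to 151538692, plus strand). It was at 220, 214, 228 and 229 CPM in WT and 263, 261, 264 and 255 in ΔDNMT3A (log2 fold change 0.22, SE 0.027, edgeR adjusted p = 2.07e-07). Its 3 DNMT3A1 libraries, at 261, 269 and 273 CPM, overlapped ΔDNMT3A (log2 difference 0.04, 95% interval -0.02 to 0.1). The libraries labelled DNMT3A2 lay between WT and ΔDNMT3A at 240, 242, 242 and 244 CPM. They were 0.11 lower than ΔDNMT3A (edgeR adjusted p = 8.1e-05), a call that was lost with the GC trend removed (-0.041). CGN was thus lowest in WT, and the top pair in its order, ΔDNMT3A and DNMT3A1, did not differ past the threshold.

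PARD3 encodes the scaffold of the PAR polarity complex, which directs where the junction forms (ENSG00000148498, chromosome 10, 34109560 to 34815325, minus strand). WT was at 125, 117, 118 and 122 CPM and ΔDNMT3A at 116, 117, 118 and 112 CPM, which overlap. The log2 fold change of -0.07 just passed (edgeR adjusted p = 0.0402). It failed under 11 alternatives, among them DESeq2 (adjusted p = 0.0735) and sequencing lanes 5 and 6 alone (edgeR adjusted p = 0.141 and 0.155). Leaving out ΔDNMT3A replicate 1, 2 or 4 or WT replicate 1 or 4 also lost it (edgeR adjusted p = 0.058 to 0.144). DNMT3A1 held 126, 122 and 122 CPM, 0.09 above ΔDNMT3A (edgeR adjusted p = 0.015, lost under 3 alternatives and at 0.0991 without DNMT3A1 replicate 1) and without a called difference from WT (edgeR adjusted p = 0.413). The change that stood out was in the libraries labelled DNMT3A2, at 149, 146, 153 and 152 CPM, above all other libraries. Their log2 fold change was 0.37 against ΔDNMT3A (SE 0.026, edgeR adjusted p = 7.98e-12) and 0.3 against WT (edgeR adjusted p = 1.08e-11).

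The MARVEL proteins span the membrane 4 times. Occludin (OCLN, ENSG00000197822) lies along bicellular contacts, tricellulin (MARVELD2, ENSG00000152939) seals the points where 3 cells meet, and MARVELD3 (ENSG00000140832) is their relative. OCLN (69492292 to 69558104) and MARVELD2 (69415112 to 69444330) stand in the same orientation on chromosome 5 with no other tested gene starting between them, and MARVELD3 lies on chromosome 16 (71626161 to 71642114, plus strand). MARVELD3 shares 16.6% of its exon bases with PHLPP2 on the other strand, and the human counting used strand.

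OCLN varied little. It was at 88.8, 89.1, 88.9 and 90.7 CPM in WT and 83.6, 85.2, 86.9 and 85.5 in ΔDNMT3A, a log2 fold change of -0.08 (SE 0.028, edgeR adjusted p = 0.0189). The groups did not overlap, yet 5 alternatives lost the call. Without ΔDNMT3A replicate 1 it was -0.068 (edgeR adjusted p = 0.0788) and without WT replicate 4 it was -0.073 (edgeR adjusted p = 0.0579). DNMT3A1 was lowest at 80.2, 81 and 81.5 CPM, 0.15 below WT (edgeR adjusted p = 0.000289). Its difference from ΔDNMT3A, -0.08, missed the threshold (edgeR adjusted p = 0.0531) and passed it under 4 alternatives. The libraries labelled DNMT3A2 were highest at 97.6, 93.1, 95.9 and 97.5 CPM, 0.17 above ΔDNMT3A (edgeR adjusted p = 1.13e-05), or 0.091 with the GC trend removed. They were 0.09 above WT, and 0.0038 with the GC trend removed, which ended that call, as lane 5 alone did (edgeR adjusted p = 0.0512).

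MARVELD2 was at 43.3, 45, 43.6 and 42.6 CPM in WT and 48.4, 49.7, 52 and 51.3 in ΔDNMT3A (log2 fold change 0.19, SE 0.035, edgeR adjusted p = 4.16e-05). It was thus higher in every ΔDNMT3A library. DNMT3A1 libraries, at 45.2, 45.2 and 47.1 CPM, fell back by 0.13 from ΔDNMT3A (edgeR adjusted p = 0.0128) and missed the threshold against WT (0.07, 95% interval -0.02 to 0.16). Within sequencing lane 5 alone the difference from ΔDNMT3A was -0.12 and did not pass (edgeR adjusted p = 0.0684). With 57.3, 55.1, 52.4 and 51.9 CPM, the libraries labelled DNMT3A2 overlapped ΔDNMT3A. Their log2 difference of 0.1 (edgeR adjusted p = 0.0215) was 0.2 within lane 5, 0.0087 within lane 6 and lost under 6 alternatives. It was 0.073, 0.092 and 0.079 without DNMT3A2 replicate 1, DNMT3A2 replicate 2 and ΔDNMT3A replicate 1, and none of these passed (edgeR adjusted p = 0.108, 0.0515 and 0.0954).

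MARVELD3 had the clearest pattern of the family. WT held 39.7, 37.8, 40.6 and 39.5 CPM and ΔDNMT3A 47.9, 45.5, 49.9 and 47 CPM, without overlap (log2 fold change 0.26, SE 0.037, edgeR adjusted p = 1.83e-06). DNMT3A1 was at 31.4, 31.6 and 32.2 CPM, below every library of the other lines. It fell by 0.58 from ΔDNMT3A (edgeR adjusted p = 1.69e-09) and by 0.32 from WT (edgeR adjusted p = 9.52e-07). The libraries labelled DNMT3A2, at 37.2, 37, 38.2 and 38 CPM, were 0.34 lower than ΔDNMT3A (edgeR adjusted p = 1.4e-08). They overlapped WT (log2 difference -0.08, 95% interval -0.16 to -0.01, edgeR adjusted p = 0.0539), and passed at -0.1 without WT replicate 2 (edgeR adjusted p = 0.0213). MARVELD3 was the member that was higher in ΔDNMT3A and lower again in both isoform lines.

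F11R and CXADR encode receptors of the immunoglobulin family. F11R encodes junctional adhesion molecule A (ENSG00000158769, chromosome 1, 160995211 to 161021348, minus strand), and CXADR the coxsackievirus and adenovirus receptor (ENSG00000154639, chromosome 21, 17512382 to 17593579, plus strand). F11R was the steadiest of the 9 genes, with 217, 213, 210 and 214 CPM in WT, 222, 217, 221 and 216 in ΔDNMT3A and 226, 216, 214 and 220 in the libraries labelled DNMT3A2. The log2 difference between ΔDNMT3A and WT was 0.02 (95% interval -0.03 to 0.08, edgeR adjusted p = 0.419). Its 3 DNMT3A1 libraries were lower, at 200, 194 and 206 CPM, by 0.13 against ΔDNMT3A (edgeR adjusted p = 0.00125). Against WT the difference was -0.09, and -0.066 without DNMT3A1 replicate 2, when it no longer passed (edgeR adjusted p = 0.0659). F11R shares 36.6% of its exon bases with an unnamed gene on the same strand that never held more than 26 counts. How reads in the shared bases were assigned was not examined, so the level of F11R may be too low.

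CXADR was at 184, 185, 181 and 181 CPM in WT and 162, 171, 164 and 173 in ΔDNMT3A (log2 fold change -0.14, SE 0.028, edgeR adjusted p = 0.000183). In DNMT3A1 it was lower still, at 150, 145 and 149 CPM, 0.18 below ΔDNMT3A (edgeR adjusted p = 7.87e-05) and 0.3 below WT (edgeR adjusted p = 2.24e-09). The isoform lines went to opposite sides of ΔDNMT3A. The libraries labelled DNMT3A2 held 201, 193, 198 and 211 CPM, 0.26 above ΔDNMT3A (edgeR adjusted p = 3.31e-08), or 0.17 with the GC trend removed. They were 0.12 above WT (edgeR adjusted p = 8.54e-05), which became 0.039 and lost the call with the GC trend removed.

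**Figure D2:**
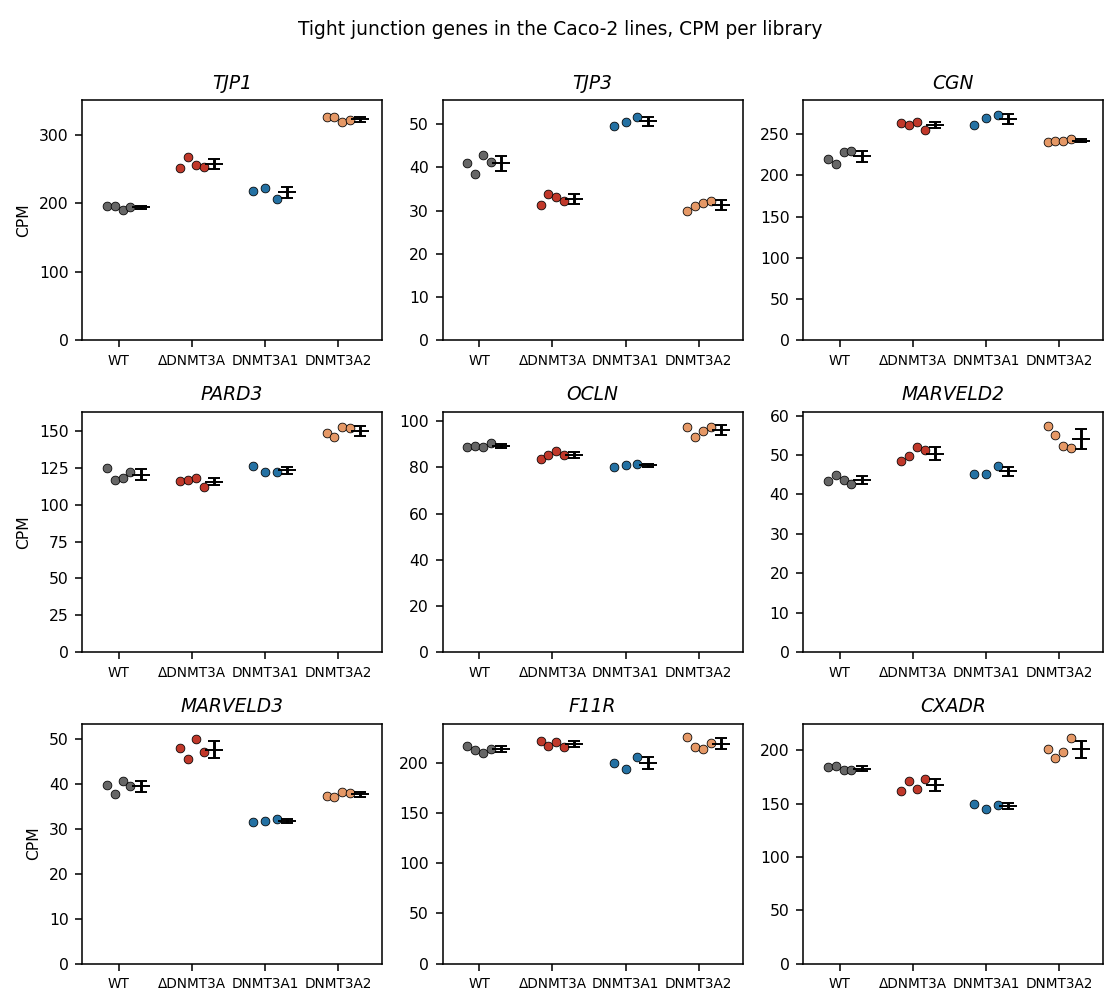
Levels of the 9 genes in the Caco-2 lines, 1 panel a gene, with CPM on the y axis from 0 and the 4 lines on the x axis. Points are libraries (3 for DNMT3A1, 4 for the others) and bars are mean ± SD. TJP1 runs from 195 CPM in WT to 322 in DNMT3A2, TJP3 from 31.2 in DNMT3A2 to 50.6 in DNMT3A1, and F11R stays between 200 and 219.

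Over the 4 lines the range of the mean log2 CPM was 0.73 for TJP1, 0.7 for TJP3, 0.58 for MARVELD3, 0.44 for CXADR, 0.37 for PARD3, 0.31 for MARVELD2, 0.27 for CGN, 0.25 for OCLN and 0.13 for F11R. When the lines were put in order for each gene, 19 of the 27 adjacent pairs passed the test and 8 did not. DNMT3A1 was the lowest line for OCLN, MARVELD3, F11R and CXADR and the highest for TJP3 and CGN. The libraries labelled DNMT3A2 were highest for TJP1, PARD3, OCLN, MARVELD2 and CXADR, and level with ΔDNMT3A at 219 CPM for F11R.

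Levels of different genes were compared per kilobase of exon. In WT, F11R was highest at 42.1 CPM per kb, then CGN at 33.6, CXADR at 27.3, PARD3 at 18.5, TJP1 at 17.3, OCLN at 13.2, TJP3 at 9.7, MARVELD2 at 8.91 and MARVELD3 at 6.11. F11R, CGN and CXADR led in every line, and MARVELD3 was last in every line. The order differed in the mouse, where fl/fl cells held 137 CPM per kb of F11r, 130 of Tjp3, 130 of Cxadr, 76.6 of Cgn, 74.6 of Ocln, 50.4 of Tjp1, 30.8 of Marveld3, 16 of Marveld2 and 9.33 of Pard3. Tjp3 thus stood among the 3 highest genes in mouse colon cells and seventh of 9 in Caco-2 WT cells. Exon lengths are those of all annotated exons of a gene, so a gene with long unused exons is put too low on this scale.

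Each Caco-2 gene was also set beside its neighbours on the chromosome, the 25 tested genes on either side. Between DNMT3A1 and the libraries labelled DNMT3A2 the neighbours of several members were shifted the same way as the member. The 50 genes around OCLN, in 8.56 Mb of chromosome 5, had a median log2 fold change of -0.54, with 43 lower and 1 higher past the threshold, beside -0.25 for OCLN and -0.24 for MARVELD2, whose windows share 48 genes. The median was -0.42 around TJP1 (-0.58 for the gene), -0.44 around PARD3 (-0.28) and -0.4 around MARVELD3 (-0.24). It was -0.39 over all 758 tested genes of chromosome 5 and -0.39 over the 570 of chromosome 15, where the median of all genes was 0.003. Over the 629 of chromosome 10 (PARD3) it was -0.16, and over the 803 of chromosome 16 (MARVELD3) it was -0.15. The shift was small where the other members lie, at -0.02 around TJP3 (0.7 for the gene), 0.03 around CGN (0.15), -0.1 around F11R (-0.13) and -0.13 around CXADR (-0.44). Single neighbours went both ways around TJP3 (14 higher and 16 lower past the threshold) and CXADR (6 higher and 16 lower), so a median near 0 there does not mean that each neighbour changed little. The part of these stretches in the members' differences was not tested.

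The neighbours of TJP1 showed such a shift in DNMT3A2 but not in ΔDNMT3A. Against WT their median was -0.01 in ΔDNMT3A, with 6 higher and 6 lower past the threshold, when TJP1 itself was 0.39 higher. In the libraries labelled DNMT3A2 it was 0.38, with 34 higher and 6 lower, beside 0.71 for TJP1. In DNMT3A2 against ΔDNMT3A the median around TJP1 was 0.34, with 29 higher and 4 lower, beside 0.32 for the gene. Around PARD3 the median in the same comparison was 0.2, with 26 higher and 7 lower, beside 0.37 for PARD3. In DNMT3A1 against ΔDNMT3A the neighbours of PARD3 went the other way, at -0.32 with 5 higher and 25 lower, beside 0.09 for the gene. In DNMT3A1 against WT they were at -0.32, with 3 higher and 29 lower, beside 0.03. Around MARVELD3 the median in ΔDNMT3A against WT was 0.15, with 23 higher and 6 lower, beside 0.26 for the gene. In DNMT3A1 against ΔDNMT3A it was -0.31, with 5 higher and 29 lower, beside -0.58 for MARVELD3. In DNMT3A2 against ΔDNMT3A it was 0.17, with 23 higher and 5 lower, beside -0.34 for MARVELD3. Around OCLN it was 0.03 in ΔDNMT3A and -0.36 in DNMT3A1 against WT, beside -0.08 and -0.15 for OCLN. In DNMT3A2 against ΔDNMT3A the median was 0.21 around OCLN and around MARVELD2, beside 0.17 and 0.1 for the genes. It was 0.18 over chromosome 5. In DNMT3A2 against WT it was 0.22 around both and 0.28 over chromosome 5. OCLN was 0.09 higher there, and MARVELD2 0.27 to 0.32 higher with 1 library left out.

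**Figure D3:**
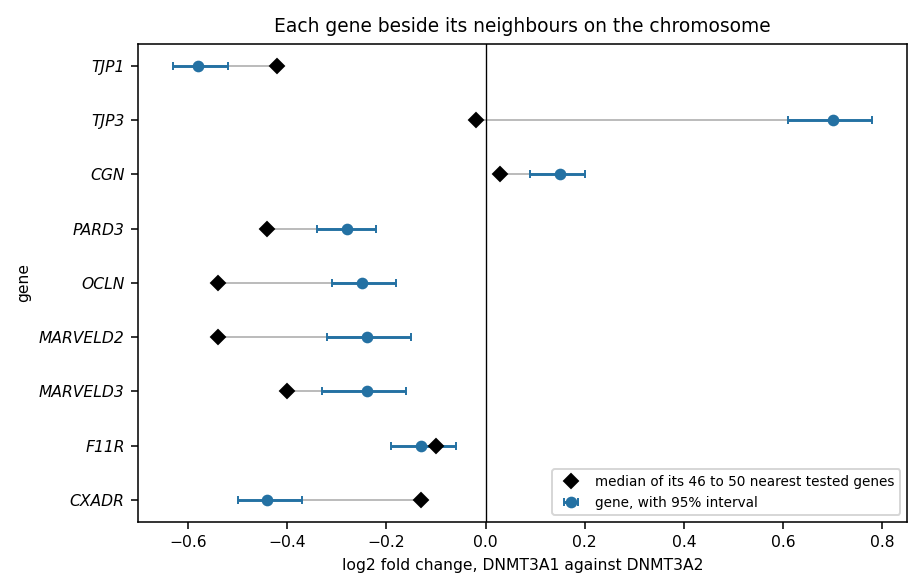
Log2 fold change in DNMT3A1 against DNMT3A2 on the x axis, 1 row a gene. Circles are the 9 genes with 95% intervals and diamonds the median of the 46 to 50 nearest tested genes. Around OCLN and MARVELD2 the neighbours lie at -0.54, beyond the genes themselves at -0.25 and -0.24, and around TJP3 they lie at -0.02.

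The 9 genes were placed among 45 other junction genes in 4 lists. Of the 41 tested in ΔDNMT3A against WT, 17 were higher and 12 lower, where 31.2% of all genes were higher and 31% lower. The median log2 fold change was 0.05, beside -0.005 for all genes. Among plaque scaffolds, 1 of 9 tested was higher and 3 lower, from MAGI3 (-0.6, edgeR adjusted p = 2.58e-11) to TJAP1 (0.21, edgeR adjusted p = 0.000466). Among polarity genes, 6 of 11 were higher and 3 lower. PALS1, the Crumbs complex adaptor, rose by 0.53 (edgeR adjusted p = 5.41e-14), and PARD6G was lowest at -0.77 (edgeR adjusted p = 0.00341) with at most 41 counts in any library.

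Of the other membrane proteins, 3 of 7 tested were higher and 3 lower in ΔDNMT3A. ESAM, an endothelial adhesion molecule, had the highest value, 0.82 (edgeR adjusted p = 1.39e-05), at 4.01 CPM against 2.27 in WT. JAM3, a relative of F11R, had the lowest, -2.19 (edgeR adjusted p = 4.32e-09), at 0.342 CPM against 1.55. Of the regulators, 7 of 14 were higher and 3 lower, from ROCK2, a kinase acting on actomyosin (-0.52, edgeR adjusted p = 1.48e-13), to its paralogue ROCK1 (0.27, edgeR adjusted p = 5.4e-07). The counts over the 4 lists, higher and lower, were 12 and 17 of 41 in DNMT3A1 against ΔDNMT3A (30.4% and 30.3% of all genes), and 12 and 21 of 40 in DNMT3A2 against ΔDNMT3A (33.8% and 34.1%). They were 16 and 13 of 41 in DNMT3A1 against WT (32.6% and 32.7% of all genes), 15 and 20 of 41 in DNMT3A2 against WT (34.3% and 34.4%), and 19 and 13 of 40 between the isoform lines (34.5% and 33.9%). No test compared the lists with all genes.

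TJP1 had the widest range over the lines, so its pattern was searched for among all tested genes. The 5 genes whose 4 centred line means came nearest were ENSG00000261775, ENSG00000261068, PDCD2L, ARF4-AS1 and PRXL2C, with root mean square differences of 0.017 to 0.028 in log2 CPM. The line means in log2 CPM were low for ENSG00000261775 (-1.87 to -1.16), ENSG00000261068 (-2.24 to -1.51) and ARF4-AS1 (-0.25 to 0.5). TJP1 was at 195 to 322 CPM. With 4 points a gene and libraries in common, such likeness is a description only.

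The colonic cells of mice gave wider spreads. Tjp1 (ENSMUSG00000030516, GRCm38 chromosome 7, 65296165 to 65527781) was at 374, 506, 335 and 361 CPM in Dnmt3a fl/fl and at 285, 296, 374 and 388 CPM in Dnmt3a ΔIEC. The groups overlapped, and the log2 difference was -0.23 (SE 0.16, 95% interval -0.57 to 0.12, edgeR adjusted p = 0.54). Ocln (ENSMUSG00000021638, chromosome 13, 100496507 to 100552718) was at 307, 392, 267 and 293 CPM in fl/fl and 287, 264, 331 and 333 in ΔIEC (log2 difference -0.05, 95% interval -0.35 to 0.25). Tjp3 was at 389, 378, 347 and 463 CPM against 364, 417, 489 and 395 in ΔIEC (0.08, 95% interval -0.2 to 0.36). Neither the scaffold nor the occludin transcripts separated the genotypes.

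Marveld3 was at 83.9, 131, 78.1 and 112 CPM in fl/fl and 94.5, 105, 133 and 126 CPM in ΔIEC (0.18, 95% interval -0.2 to 0.56). Marveld2 was steadier, at 55.9, 48.4, 56.2 and 56.4 CPM against 53.8, 55.4, 55.7 and 56.6 (0.03, 95% interval -0.15 to 0.21). Pard3 was at 133, 141, 134 and 134 CPM against 125, 132, 140 and 135 (-0.03, 95% interval -0.2 to 0.14). For these 2 genes the intervals were the narrowest of the 9. Cgn (379 to 556 CPM in fl/fl, 369 to 490 in ΔIEC), F11r (297 to 424 and 312 to 393) and Cxadr (701 to 1030 and 634 to 950) also overlapped, with log2 differences of -0.1, -0.07 and -0.08. Over the 9 genes the adjusted p ran from 0.54 to 0.914 in edgeR, 0 had an unadjusted p under 0.05, and DESeq2 called 0. The interval of Cxadr was -0.46 to 0.3, as wide as that of Marveld3.

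**Figure D4:**
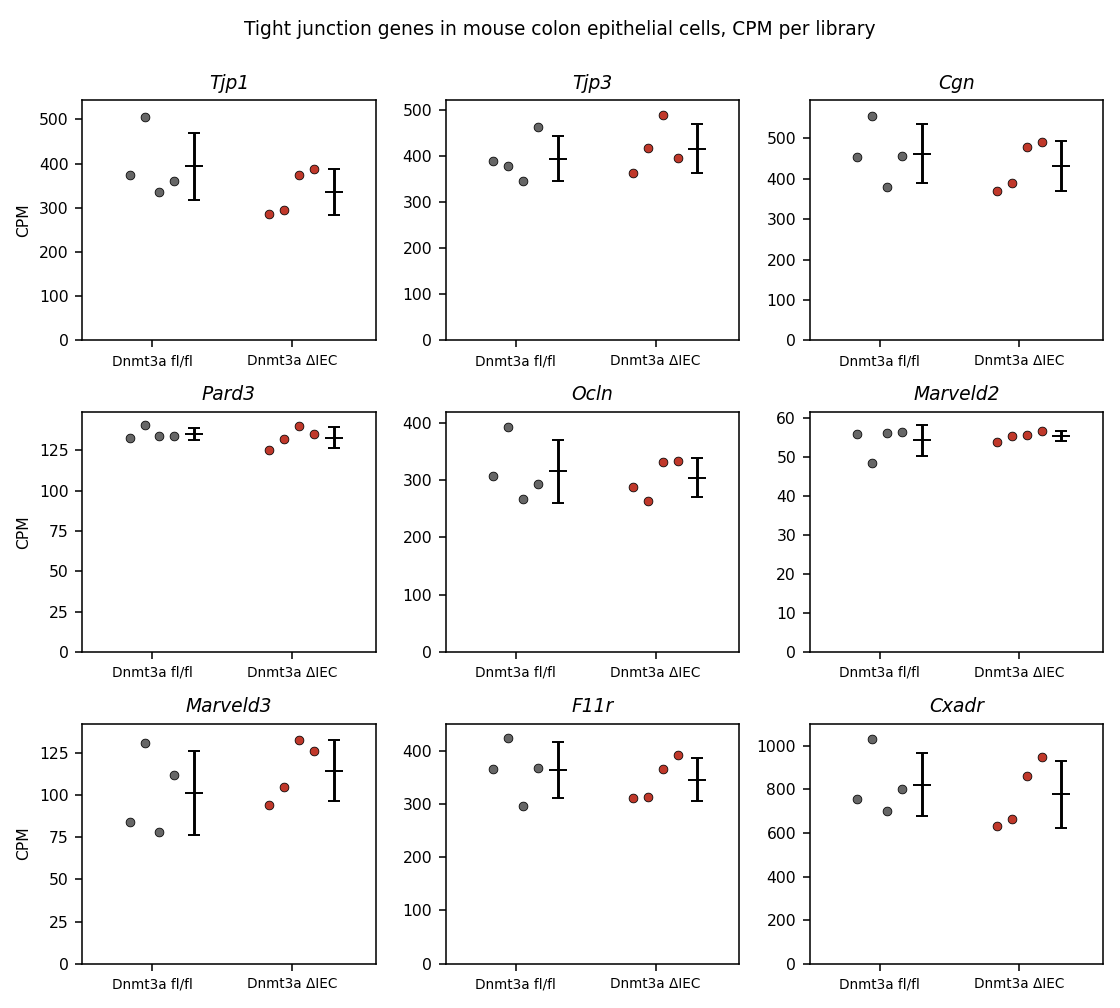
Levels of the 9 genes in mouse colon epithelial cells, 1 panel a gene, with CPM on the y axis from 0 and the 2 genotypes on the x axis. Points are the 4 libraries of each genotype and bars are mean ± SD. The genotypes overlap in every panel, and replicate 2 of fl/fl is the highest of its group in 7 panels.

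The mouse libraries differed from one another in a way that the genotypes did not explain. Summed over the 9 genes, the level was 2520, 2640, 3230 and 3270 CPM in ΔIEC and 2920, 3610, 2590 and 3040 CPM in fl/fl. The summed colonocyte differentiation markers (5 of the 6 on the list were found by symbol: Krt20, Slc26a3, Aqp8, Ceacam20 and Guca2a) were 4990, 5700, 7110 and 8470 CPM in ΔIEC and 6320, 10600, 5270 and 6460 CPM in fl/fl. Ranked by either sum, the 8 libraries stood in the same order. Goblet markers summed to 15400, 21300, 27900 and 24800 CPM in ΔIEC and 23400, 32200, 21500 and 28500 CPM in fl/fl, also highest in fl/fl replicate 2 and lowest in ΔIEC replicate 1. Crypt base and cycling markers summed to 459, 333, 227 and 251 CPM in ΔIEC and 438, 319, 649 and 280 CPM in fl/fl. Within each genotype they were highest in the library where the sum of the 9 genes was lowest. The sums share their libraries and normalization, and the relation was noticed after the values were seen, so it carries no test. Replicate 2 of fl/fl stood apart in both, and without it the log2 differences were -0.088 for Tjp1, 0.057 for Tjp3, 0.0034 for Cgn, -0.011 for Pard3, 0.071 for Ocln, -0.023 for Marveld2, 0.33 for Marveld3, 0.0065 for F11r and 0.045 for Cxadr, none past the threshold. Fewer cells of a type and less RNA per cell cannot be told apart in bulk samples.

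**Figure D5:**
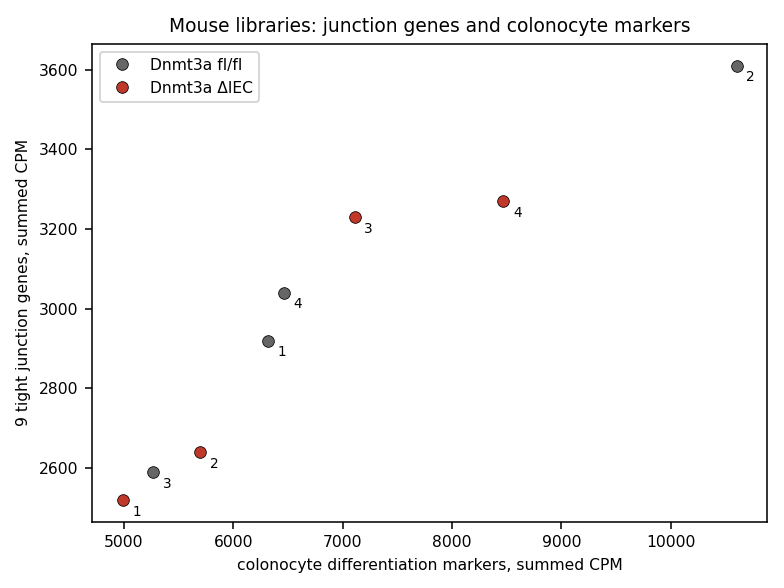
Mouse libraries, with the summed CPM of the colonocyte differentiation markers on the x axis and that of the 9 tight junction genes on the y axis, neither axis starting at 0. Points are libraries, coloured by genotype and numbered by replicate. The 8 points run in 1 order from ΔIEC replicate 1 at 4990 and 2520 CPM to fl/fl replicate 2 at 10600 and 3610 CPM.

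Markers of other cell types were read in the same mouse libraries. Tuft cell markers summed to 128 to 153 CPM in ΔIEC and 40.4 to 51 in fl/fl, and 4 of the 4 tested rose. Immune markers summed to 4.86 to 6.49 and 2.68 to 4.03 CPM and stromal and endothelial markers to 11.9 to 15.2 and 11.3 to 21.2, in ΔIEC and fl/fl. Tested were 2 of the 6 immune, 5 of the 7 stromal and endothelial, all 5 goblet and 3 of the 4 crypt genes, and none of these passed. The immune sums did not overlap between the genotypes, and 4 immune genes were not tested. Cdh5 was at 0 in 3 fl/fl libraries and 1 ΔIEC library. In Caco-2 the colonocyte differentiation markers summed to 17.1 to 19.3 CPM in ΔDNMT3A, mostly KRT20 at 16.1, and to 3 to 4.83 CPM in the other lines. The immune list, nearly all CSF1R, summed to 18.1 to 21.5 CPM in ΔDNMT3A, 5.36 to 5.91 in WT and 11.6 to 14.9 in the isoform lines. Their part in the junction genes' differences was not tested.

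Among the 41 other junction genes tested in the mouse, edgeR called 0, with 5 at an unadjusted p under 0.05 (Magi1, Mpdz, Pard6b, Micall2 and Rab13). That is 12.2% of them, beside 14.1% of all genes. DESeq2 called 1, Mpdz, a multi-PDZ scaffold gene, where it called 2.19% of all genes. Mpdz was at 0.424 CPM in ΔIEC and 1.92 in fl/fl (log2 difference -2.18, SE 0.53, edgeR adjusted p = 0.14), with at most 73 counts in any library. These genes were named after their values were seen.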

How the data were processed

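RNA-seq gene counts were analysed from 15 Caco-2 and 8 mouse colon epithelial libraries. The authors made the deposited counts from stranded total RNA libraries with Trim Galore 0.4.4, STAR 2.5.2b and featureCounts 1.5.2 (GRCh38 and GRCm38, versions per the labels). Per the file headers the human counting used strand and the mouse counting did not. DNMT3A1 replicate 3 was not analysed here.

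Each pair of groups was fitted separately with edgeR 4.0.16 (R 4.3.3): filterByExpr, TMM, quasi-likelihood F test, Benjamini-Hochberg adjustment over all genes tested, threshold 0.05. CPM used TMM library sizes over all libraries of a species. Alternatives were DESeq2 1.42.0, DESeq2 size factors, no filter, length or GC trends removed, all 4 Caco-2 groups in 1 fit, single lanes, a replicate block and leaving out each library. The code was tested on simulated data.

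The 9 genes, the lists and the tests were chosen with earlier results of these data known. Genes outside the 9 were named by rule as the lowest and highest past the threshold of each list in ΔDNMT3A against WT, and the 5 nearest to TJP1 by pattern. Exceptions are marked in the text.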

Additional observations from a re-analysis of the deposited data

Results flagged for a closer look

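OCLN in WT replicate 4 was at 90.7 CPM, apart from the other WT libraries at 88.8 to 89.1 CPM. Marveld2 in fl/fl replicate 2 was at 48.4 CPM, apart from the others at 55.9 to 56.4 CPM. These were 2 of 45 groups of 4 libraries in which the gap between the end library and its neighbour passed Dixon's 95% limit for its share of the range, and chance gives about 1 in 20.

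The 2 isoform lines, both made from ΔDNMT3A, differed from each other in all 9 genes. In DNMT3A1 against the libraries labelled DNMT3A2 the log2 fold change was -0.58 for TJP1, 0.7 for TJP3, 0.15 for CGN, -0.28 for PARD3, -0.25 for OCLN, -0.24 for MARVELD2, -0.24 for MARVELD3, -0.13 for F11R and -0.44 for CXADR. The edgeR adjusted p ran from 1.61e-15 to 0.000602. In the same comparison 68.5% of all genes passed, and clone and isoform cannot be told apart.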

How the results depend on the processing

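Of the 45 calls of members, 36 held under every alternative other than a log2 fold change minimum of 0.5, 9 were lost under at least 1, and none changed direction. With that minimum the members called were 0 in ΔDNMT3A against WT, 2 in DNMT3A1 against ΔDNMT3A, 0 in DNMT3A2 against ΔDNMT3A, 0 in DNMT3A1 against WT, 1 in DNMT3A2 against WT and 2 between the isoform lines. Leaving out 1 library gave 6 to 8, 6 to 7, 6 to 7, 6 to 7, 7 to 8 and 9 in that order, and 0 in mouse. Values that changed sign had not passed the test. In DNMT3A2 against ΔDNMT3A, F11R was 0.0031 with the length trend removed, 0.0012 with all 4 groups in 1 fit, 0.0091 within lane 5 and -0.018 to 0.0084 with 1 library left out, and TJP3 was 0.032 with the GC trend removed. In mouse, Pard3 was 0.14 and Marveld2 -0.0021 with the length trend removed. With 1 library left out, the mouse values were -0.31 to -0.088 for Tjp1, 0.075 to 0.33 for Marveld3, -0.0076 to 0.16 for Tjp3, -0.18 to 0.0034 for Cgn, -0.051 to 0.0027 for Pard3, -0.12 to 0.071 for Ocln, -0.023 to 0.047 for Marveld2, -0.16 to 0.0065 for F11r and -0.19 to 0.045 for Cxadr. The causes were not tested. The GC trend also took CGN in DNMT3A1 against DNMT3A2 from 0.15 to 0.082. Same-numbered libraries did not deviate together (21 pairs, r from -0.033 to 0.055), and with the replicate block the members called were 8, 7, 7, 7, 7 and 9, as without it. Mouse labels carry no shared replicate numbers. For lane 6, comparisons with DNMT3A1 were not run, since it holds 1 DNMT3A1 library. Over all genes in mouse, edgeR called 101 and DESeq2 351.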
